A study of Mus musculus with 4 samples.

Results

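Among the peaks of an SHP chromatin immunoprecipitation sequencing (ChIP-seq) experiment on mouse intestine, 397 were strong, narrower peaks at the end of a single gene. They were chosen from the 5775 peaks of the wild-type list by values of the peaks themselves. The summit, which is the highest point of a peak, had to lie within 1 kb of an end of exactly 1 protein-coding gene. The peak had to be under 1700 bp wide, and its enrichment value had to be 7 or more. The enrichment value is the authors' own deposited signal of a peak, on a scale that the sources used here do not give. In all, 3420 peaks had their summit at a single gene end, and the others were 2657 narrow peaks under an enrichment value of 7 and 366 peaks of 1700 bp or wider. The 397 strong peaks belonged to 397 different genes.

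The antibody was raised against SHP and used on pooled jejunum and ileum of SHP-knockout mice and of wild-type C57BL/6 mice, aged 8 to 12 weeks. Food was withheld from all mice for 12 h and normal chow returned for 4 h, so every library is from the refed state. The protocol in the labels names 3 sets of samples, each from 3 pooled mice. The peak lists used here were 1 for the knockout immunoprecipitation and 1 for the wild-type immunoprecipitation, and the inputs were not analysed here. There was no list per set, so no value carries a replicate error, and the read depth is not given in the sources used here. Intervals below are 95% exact binomial intervals and cover counting error only.

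SHP (small heterodimer partner, gene Nr0b2) is an orphan nuclear receptor without a DNA-binding domain. It reaches chromatin through other transcription factors and mostly represses them, and in liver and ileum it takes part in the feedback control of bile acid and lipid genes. The start of a gene is where RNA polymerase II assembles. Many starts in mammals lie in CpG islands, stretches of GC-rich DNA in which the CpG pair is kept and left unmethylated. One sequence of such promoters is a palindrome built around TCTCGCGAG, a DNA element bound in mouse and human cells by BANP when its CpGs are unmethylated.

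The promoters of Denr, Micos10, Eif4a3 and Psmd5, strong peaks with the summit inside the listed sequence, are shown first as examples of the full and the shorter match, with that of Npc1l1, the strongest peak of all. Each runs from 250 bases before to 50 bases after the listed transcription start and was read from RefSeq sequence of GRCm38.p6, whose coordinates are those of mm10. They are written 5′ to 3′ along the gene, and capitals mark matches to TCTCGCGAG or, where that was absent, to its shorter core CTCGCGA, on either strand, and in Micos10 also CAAGGTCA, the site of the nuclear receptor NR5A2.
Npc1l1, chr11:6230196-6230495, minus strand: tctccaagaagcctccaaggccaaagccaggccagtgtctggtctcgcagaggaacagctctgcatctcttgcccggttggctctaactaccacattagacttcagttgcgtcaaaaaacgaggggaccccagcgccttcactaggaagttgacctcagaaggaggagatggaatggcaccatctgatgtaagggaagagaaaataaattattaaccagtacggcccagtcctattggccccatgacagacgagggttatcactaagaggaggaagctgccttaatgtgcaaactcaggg
Denr, chr5:123907025-123907324, plus strand: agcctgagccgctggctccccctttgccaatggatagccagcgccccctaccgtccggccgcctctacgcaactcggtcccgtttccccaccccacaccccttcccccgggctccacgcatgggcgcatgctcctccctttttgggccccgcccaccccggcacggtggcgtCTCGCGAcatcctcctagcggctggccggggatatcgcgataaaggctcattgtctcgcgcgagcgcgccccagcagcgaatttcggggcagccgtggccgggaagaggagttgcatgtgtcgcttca
Micos10, chr4:139130988-139131287, minus strand: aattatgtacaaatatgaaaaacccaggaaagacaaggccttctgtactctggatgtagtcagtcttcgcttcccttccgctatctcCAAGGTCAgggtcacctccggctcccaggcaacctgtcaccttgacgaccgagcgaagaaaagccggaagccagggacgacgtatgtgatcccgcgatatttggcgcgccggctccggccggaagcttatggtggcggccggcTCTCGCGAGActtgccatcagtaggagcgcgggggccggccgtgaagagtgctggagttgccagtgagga
Eif4a3, chr11:119299994-119300293, minus strand: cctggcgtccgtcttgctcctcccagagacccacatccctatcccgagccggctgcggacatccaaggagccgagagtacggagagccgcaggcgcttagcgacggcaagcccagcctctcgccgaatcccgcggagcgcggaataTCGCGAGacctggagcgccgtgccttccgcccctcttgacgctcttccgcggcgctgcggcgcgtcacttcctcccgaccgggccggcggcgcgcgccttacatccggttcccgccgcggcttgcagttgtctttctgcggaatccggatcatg
Psmd5, chr2:34870913-34871212, minus strand: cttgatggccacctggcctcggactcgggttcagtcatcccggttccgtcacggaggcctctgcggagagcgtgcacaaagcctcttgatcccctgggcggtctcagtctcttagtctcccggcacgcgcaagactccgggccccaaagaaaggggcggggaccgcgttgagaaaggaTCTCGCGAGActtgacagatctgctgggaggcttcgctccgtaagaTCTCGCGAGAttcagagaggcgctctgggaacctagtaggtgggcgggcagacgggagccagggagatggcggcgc

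The Psmd5 window held the palindrome at 2 places, beginning 72 and 26 bases before the start, and Micos10 held it once, beginning 20 bases before the start. The windows of Denr and Eif4a3 held only the shorter core, and that of Npc1l1 held neither. The Npc1l1 summit lay outside its window, so the sequence under it was not read. Across the strong peaks with the summit inside such a window, 18 windows held TCTCGCGAG, and 13 of these elements are given here with 10 bases on each side. They are all 10 at an enrichment value of 9 or more, in falling order of that value, followed by 3 at genes of the lysosome, iron and ribosome lists described below. Capitals mark the element.
Micos10, chr4:139131038-139131067, minus strand: ggcggccggcTCTCGCGAGActtgccatca
Supt5, chr7:28338754-28338783, minus strand: acgcgccagtTCTCGCGAGAgagcgctcag
Psmd5, chr2:34871015-34871044, minus strand: tgagaaaggaTCTCGCGAGActtgacagat
Ssbp1, chr6:40471384-40471412, plus strand: tttccttgcaTCTCGCGAGctttgcgggc
Tmco1, chr1:167308595-167308624, plus strand: gctttccaacTCTCGCGAGAccgggcctgg
Rbm39, chr2:156180223-156180252, minus strand: cggggcagttTCTCGCGAGAgcccgtgctt
Hspa4, chr11:53300471-53300500, minus strand: tgagccggggTCTCGCGAGAacgtttcgtt
Ggnbp2, chr11:84870857-84870886, minus strand: gcggccgcggTCTCGCGAGAagaggcaggc
Slc25a4, chr8:46211062-46211091, minus strand: tccctcctccTCTCGCGAGAcgccgagccg
Nptn, chr9:58582247-58582275, plus strand: ccagcggaggTCTCGCGAGgcttggacgc
Rraga, chr4:86575644-86575673, plus strand: ccctcggagtTCTCGCGAGAtgccggcggg
Ncoa4, chr14:32159849-32159878, plus strand: cggaaggaaaTCTCGCGAGActgtcagaac
Rps6, chr4:86857399-86857428, minus strand: cgccggctgtTCTCGCGAGAacttagagcg

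In 15 of the 18 windows the match extended to 10 bases that read alike on both strands, and in 3, at Ssbp1, Nptn and Rnpc3, it covered 9 bases.

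The strong narrower peaks formed a dense band just above the threshold with a thin upper tail. Enrichment values ran from 7.01 to 37.2 with a median of 7.54. Of the 397 peaks, 283 lay between 7 and 8, 87 between 8 and 9, 24 between 9 and 12, and 3 above 12. These 3 were Npc1l1 at 37.2, Denr at 14.2 and Cdk12 at 13.8. Npc1l1 encodes the transporter through which enterocytes take up cholesterol, Denr acts in ribosome recycling and reinitiation, and Cdk12 is a kinase of RNA polymerase II.

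Next in value came Micos10 (enrichment value 11.7), a subunit of the complex that shapes mitochondrial cristae, and Eif4a3 (11.5), the helicase of the exon junction complex. Supt5 (11.2) encodes a transcription elongation factor. Hip1r (10.98), a protein of clathrin-coated pits, was followed by Psmd5 (10.8), an assembly chaperone of the proteasome, and Ssbp1 (10.8), which binds single-stranded mitochondrial DNA. Ccdc107 had 10.7, Tmco1, a calcium channel of the endoplasmic reticulum, 10.2, and Cebpd, a transcription factor of the C/EBP family, 10.2. Hmgcs1, an early enzyme of sterol synthesis, had 9.96, and Rbm39, a splicing regulator, 9.88. The rest of the highest 20 were Smpd5 (9.71), the linker histone gene H1f4 (9.36), Rin3 (9.30), the chaperone gene Hspa4 (9.19), Kank1 (9.19) and Ggnbp2 (9.18).

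**Figure D1:**
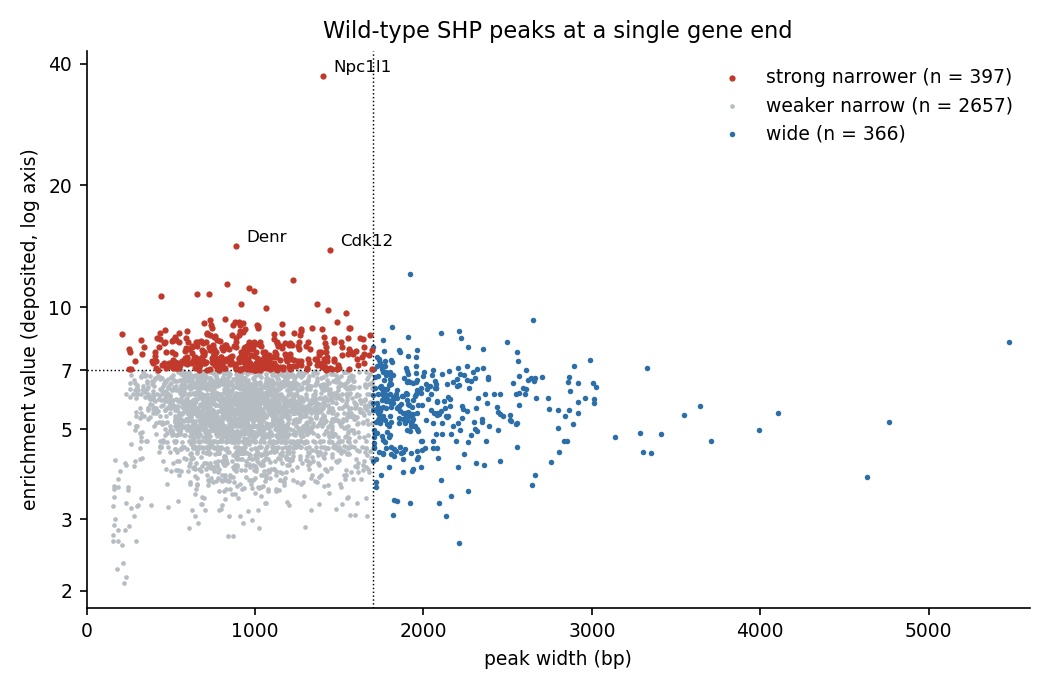
Peak width (bp, horizontal) against the deposited enrichment value (vertical, log axis) for all wild-type peaks at a single gene end, 1 point per peak. Red points are the 397 strong narrower peaks, grey the 2657 weaker narrow peaks and blue the 366 wide peaks, and dotted lines mark the thresholds of 7 and 1700 bp. Npc1l1 at 37.2 stands apart, while 283 of the red points lie between 7 and 8.

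The thresholds cut through a continuous range. Just inside the enrichment threshold were Det1 (7.01), Leprotl1 (7.02) and Ccdc166 (7.02), and just outside it were Mapkap1 (6.99) and Man1a2 (6.99). Just inside the width limit were Luc7l2 (1695 bp), Myo18a (1694 bp) and Dnm1 (1682 bp), and just outside it were Fam98c (1702 bp), Zfr (1709 bp) and Lpp (1723 bp), among 44 wide peaks with an enrichment value of 7 or more.

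Widths of the strong narrower peaks ran from 207 to 1695 bp with a median of 934 bp, close to the 938 bp of the weaker narrow peaks. The narrowest, at 207 and 249 bp, lay at the replication-dependent histone genes H3c6 and H4c3. Across the 397 peaks, enrichment value and width had a Spearman correlation of -0.0021, and enrichment value and −log10 p one of 0.590. These are descriptions over peaks of a single list, which share its depth. The deposited −log10 p ran from 15.2 to 257 with a median of 21.4, and the deposited score was at its highest, 1000, in 290 peaks (73.0%). Many peaks carried identical values: 315 of the 397 (79.3%) shared both enrichment value and −log10 p with another wild-type peak, against 94.1% of weaker narrow and 90.4% of wide peaks. An example is the pair Nubp1 and Atxn1l, both at 9.17 and 27.7. Peaks that share both values have no order among them.

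The summits lay at transcription starts, just as in the other peaks at single gene ends. A promoter was listed for 327 of the 397 genes. Of these, 318 (97.2%, interval 94.8 to 98.7) had the summit at the start side of the gene, against 97.1% of weaker narrow and 97.2% of wide peaks. The remaining 9 lay at the far end of the gene. They were Nhlrc4 (8.05), Sncb (7.77), Tmem145 (7.45), Sox13 (7.39), Sgsm2 (7.38), Ctc1 (7.37), LOC108167320 (7.35), Spef1l (7.06) and Nkx2-3 (7.05). The Ctc1 peak was also within 1 kb of 3 transfer RNA genes.

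Strong narrower summits tended to sit just inside the transcribed region. The listed start was within 1 kb for 307 of them, and the summit was at a median of 77 bp downstream of it, with the middle 50% between 1 and 167 bp downstream. Summits downstream of the start made up 75.2% (70.0 to 80.0), against 68.8% (66.7 to 70.8) of weaker narrow and 62.1% (56.0 to 67.9) of wide peaks. Only the wide peaks had an interval apart from that of the strong narrower ones. Within 250 bp of the start lay 80.1% of strong narrower, 79.0% of weaker narrow and 66.5% of wide summits, and 288 of the 307 strong narrower peaks (93.8%) covered the start. Among the summits farther upstream of the listed start were those of Samd4 (875 bp), Npc1l1 (780 bp), Med13l (659 bp) and Cdk12 (641 bp). The listed start need not be the outermost end of the gene. The Cdk12 summit lay inside the annotated gene, 231 bp from its start end, and the Med13l summit was 270 bp outside its gene. Of the 3 strongest peaks, only that of Npc1l1 lay far from both the listed start and the gene end.

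**Figure D2:**
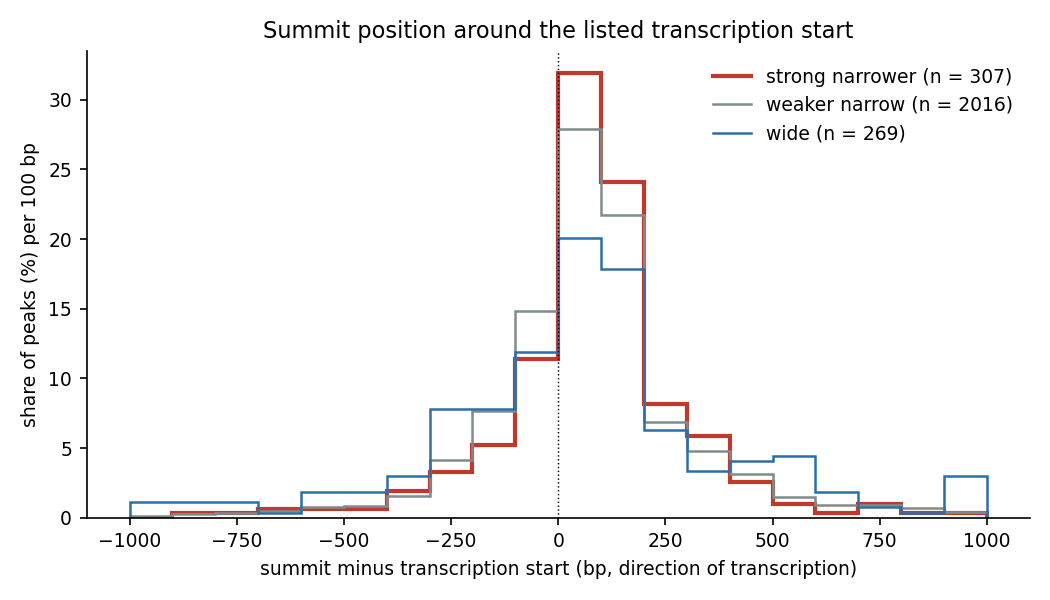
Share of peaks (%, vertical) per 100 bp of distance from the listed transcription start to the summit (bp, horizontal, downstream to the right), for 307 strong narrower (red), 2016 weaker narrow (grey) and 269 wide peaks (blue) with a listed start within 1 kb. All 3 profiles are highest just downstream of the start, and 75.2% of the strong narrower summits lie downstream of it at any distance up to 1 kb.

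Most of these peaks stood alone. Another wild-type summit was within 5 kb of 31 of the 397 (7.81%, 5.37 to 10.9), against 7.64% of weaker narrow peaks, and 41 genes (10.3%) held a further wild-type summit inside them. A gene of another type had an end within 1 kb of 62 summits (15.6%, against 16.7% of weaker narrow and 17.5% of wide peaks), a long noncoding RNA in 55 of them. Some of these neighbours were short, highly transcribed RNA genes. The Ccdc107 peak (10.7) had its summit 462 bp upstream of the start of Ccdc107 and lay beside Rmrp, the RNA of RNase MRP. The Rps29 peak (8.65) lay beside Rn7s1, and the H4c8 peak (7.76) beside the transfer RNA gene n-TMcat9. At these sites the peak cannot be assigned to either gene.

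Over all chromosomes, 397 of the 3420 single-end peaks were strong narrower ones. The highest shares of any autosome were 42 of 268 on chromosome 2 (15.7%) and 30 of 195 on chromosome 8 (15.4%). The lowest were 13 of 200 on chromosome 10 (6.5%) and 10 of 155 on chromosome 6 (6.45%). These chromosomes were picked by value, and no difference between chromosomes was tested. Chromosome X had 10 single-end peaks in all over its 966 protein-coding genes, and 5 of these were strong narrower ones, among them Suv39h1 (7.91) and Cdk16 (7.69).

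No strong narrower peak appeared in the list of mice lacking SHP. That list held 7 peaks, and 0 of the 397 strong narrower peaks overlapped one of them by any base or lay within 10 kb of one. Over the whole wild-type list 3 of 5775 peaks overlapped a knockout peak, a share so low that 0 of 397 does not set the strong narrower peaks apart. The knockout peak nearest to a member was 42615 bp from the Ttpal peak, and the next were 214347 bp from that of Cdk12 and 357294 bp from that of Srrm2. The lists of the 2 genotypes were filtered differently, so a peak missing from the knockout list cannot be read as a measured loss at that site, and no test between genotypes was made.

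Among the 18 motifs searched, the palindromic CpG element was more frequent at strong narrower peaks than at weaker narrow or wide peaks at single gene ends. The intervals did not overlap. Most wide peaks were also weaker, with a median enrichment value of 5.70. Of the 106 peaks whose summit lay inside the listed 300-base window, 18 (17.0%, interval 10.4 to 25.5) had TCTCGCGAG on either strand in that window. The weaker narrow peaks had it in 43 of 753 (5.71%, 4.16 to 7.62), the wide peaks in 1 of 86 (1.16%, 0.0294 to 6.31), and all windows of protein-coding genes in 0.965% (205 of 21238). CpG-rich promoters as a class had it seldom, in 171 of 8699 windows (1.97%), where CpG-rich means a GC content of at least 55% and a CpG ratio, observed over expected, of at least 0.6. When every peak with a start within 1 kb was counted, wherever its summit, the element was in 6.19% (3.77 to 9.50) of strong narrower, 2.68% (2.02 to 3.48) of weaker narrow and 1.12% (0.231 to 3.22) of wide peaks.

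Of the 18 element-bearing windows, 10 belonged to the thin upper tail of the enrichment value. In narrow single-end peaks with the summit in the window, the element was present in 13 of 293 peaks below 5, in 13 of 283 from 5 to 6, in 17 of 177 from 6 to 7 and in 7 of 73 from 7 to 8. It was present in 1 of 21 from 8 to 9 and in 10 of 12 at 9 or more (83.3%, 51.6 to 97.9). The share stayed under 10% up to a value of 9 and was high only above it. The highest group is thinly filled, with under 20 peaks, and the value of 9 was chosen after the values were seen. The 2 of those 12 without the full element, Denr and Eif4a3, had its shorter core CTCGCGA, a 7-base match also chosen after the sequences were seen, which is present in 2.60% of all windows.

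**Figure D3:**
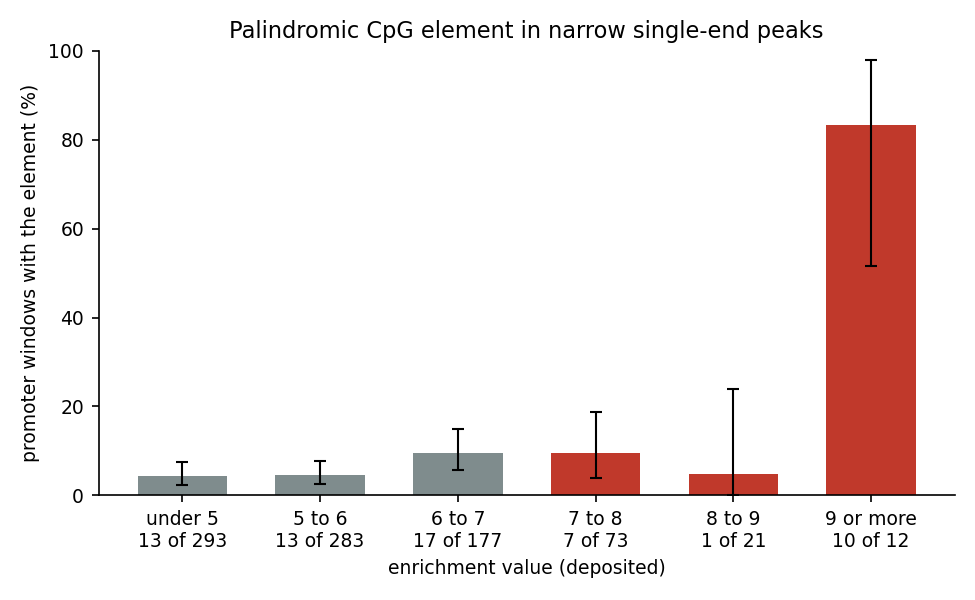
Share of promoter windows holding TCTCGCGAG (%, vertical) by the deposited enrichment value of the narrow peak whose summit lies in the window (horizontal), with red bars for strong narrower peaks, grey bars for weaker narrow peaks and error bars for 95% exact binomial intervals. The 6 groups hold 293, 283, 177, 73, 21 and 12 peaks, and the share is 83.3% in the highest group and under 10% in the other 5.

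In the upper tail, only windows that held the summit had the element. At an enrichment value of 9 or more there were 27 strong narrower peaks, of which 24 had a listed promoter. In 12 of these the summit lay in the window, and in the other 12 it lay outside. Where the summit lay outside, 0 of the 12 windows held the element or its core. These windows were those of Npc1l1, Cdk12, Hip1r, Ccdc107, Hmgcs1, H1f4, Rin3, Kank1, Nubp1, Atxn1l, Fam43b and Scarb2. The sequence under these 12 summits was beyond the windows and was not read. Whether it holds the element is therefore not known. Cebpd, Smpd5 and Cyc1 had no listed promoter.

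Summits sat close to the element. Over the 18 peaks the median distance from the summit to the centre of the nearest element was 18 bp, with a highest of 63 bp at Slc25a4, and 13 of 18 were within 25 bp. The median distance from the same summits to the transcription start was 28.5 bp. For other motifs in strong narrower windows the median summit distance was 28 bp for the GC box GGGCGG (76 peaks), 47.0 bp for the ETS site CCGGAAG (21 peaks) and 97.0 bp for the NF-Y site CCAAT (43 peaks). In the 43 weaker narrow peaks with the element the median distance to it was 25 bp. A window is only 300 bases long, so that distances in it are short for any motif.

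The nearest summit was at Nptn, 3 bp upstream of the element's centre. That of Micos10 was 4 bp upstream and that of Ssbp1 6 bp downstream of it. The Supt5 summit was 33 bp upstream and the Hspa4 summit 23 bp downstream. Summits thus lay on both sides of the element.

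**Figure D4:**
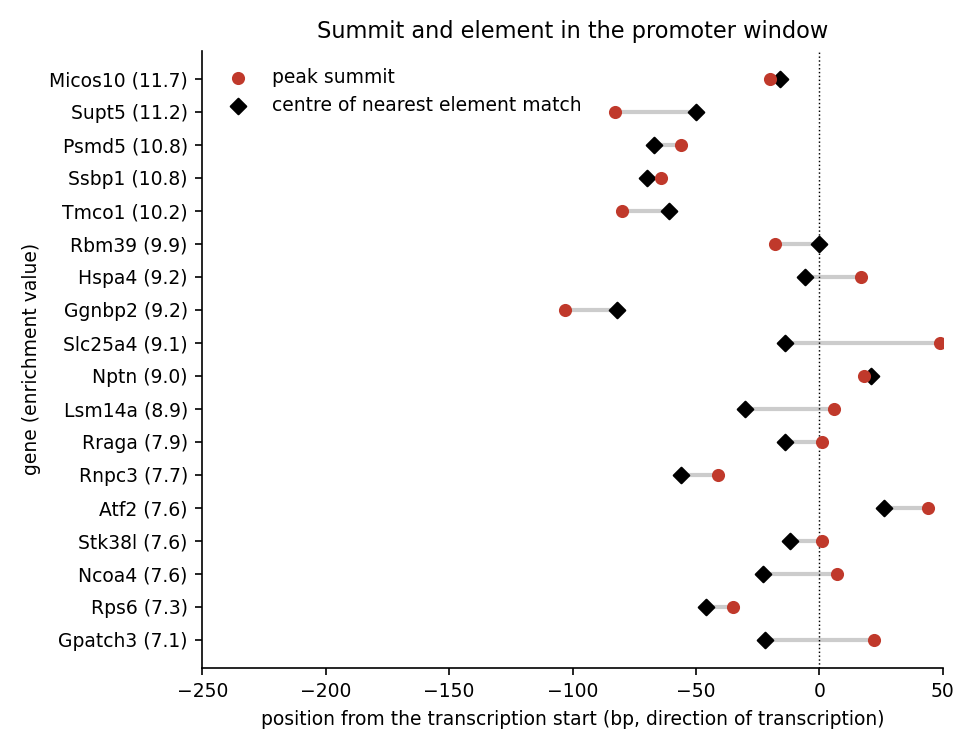
Position (bp from the listed transcription start, horizontal) of the peak summit (red circles) and of the centre of the nearest element match (black diamonds) for the 18 strong narrower peaks with the element, ordered by the enrichment value given beside each gene. Summit and element are joined by a line, which is longest, 63 bp, at Slc25a4.

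The genes at the 18 element-bearing peaks are named here by their known roles, grouped after they were seen. For transcription and RNA there were Supt5, Rbm39, Lsm14a (8.89), a protein of mRNA-silencing bodies, Rnpc3 (7.73), a protein of the minor spliceosome, Atf2 (7.61), a bZIP transcription factor, and Gpatch3 (7.13). For mitochondria there were Micos10, Ssbp1 and Slc25a4 (9.05), the ADP/ATP carrier. For proteins and nutrients there were Psmd5, Hspa4, the ribosomal protein gene Rps6 (7.25), Rraga (7.87), a GTPase that signals amino acids to mTORC1, and Ncoa4 (7.56), the receptor that sends ferritin to lysosomes. Tmco1, Ggnbp2, the adhesion protein gene Nptn (9.05) and the kinase gene Stk38l (7.57) completed them. A further strong narrower peak, at Eml5 (7.05), had the element in its window but the summit outside it.

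Values of these 18 peaks overlapped those of the other 88 with the summit in the window. Their enrichment values ran from 7.13 to 11.7 with a median of 9.05, against 7.02 to 14.2 with a median of 7.55 in the 88. Their median −log10 p was 34.4, against 21.9 in the 88, and their median width 911 bp, against 936.5 bp in the 88. Enrichment value and width both chose the peaks, so these values are a description.

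Read from the promoters rather than the peaks, windows with the element usually held a wild-type SHP summit of some strength. This was so in 126 of 205 windows with the element (61.5%, 54.4 to 68.2) and in 1472 of 21033 without it (7.0%, 6.66 to 7.35). Among CpG-rich windows the shares were 115 of 171 (67.3%, 59.7 to 74.2) with the element and 1367 of 8528 without it (16%, 15.3 to 16.8). A summit with a value of 7 or more lay in 40 windows with the element and in 166 without it. One with a value of 9 or more lay in 18 windows with the element and in 3 without it. These counts include the peaks shared by neighbouring genes and the wide peaks, of which the strongest at a single end, Ube2d3 at 12.1, also held the element.

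Other motifs separated the strong narrower peaks less. In windows with a start within 1 kb, NF-Y sites were in 35.8% of strong narrower, 38.1% of weaker narrow and 32.3% of wide peaks, and in 38.2% of all windows. ETS sites were in 16% (12.0 to 20.5) of strong narrower, 18.1% (16.4 to 19.8) of weaker narrow and 5.58% (3.15 to 9.03) of wide peaks, and in 11.6% of all windows. E-boxes of the form CACGTG, bound by factors such as TFEB, MYC and CLOCK, were in 9.77% of strong narrower, 11.6% of weaker narrow and 12.6% of wide peaks, and in 7.84% of all windows. TCACGTG, the longer site that fits TFEB better, was in 6.19% of strong narrower, 7.94% of weaker narrow and 4.46% of wide peaks, and in 4.39% of all windows. Thus sites of these factors did not have a larger share at the strong narrower peaks than at the weaker narrow ones.

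Against the weaker narrow peaks, GC boxes had a smaller and TATA boxes a larger share, each with intervals apart in only 1 of the 2 sets of windows. The GC box GGGCGG, bound by SP and KLF factors, was in 71.7% (62.1 to 80.0) of strong narrower windows with the summit inside, 84.7% (82.0 to 87.2) of weaker narrow and 89.5% (81.1 to 95.1) of wide ones. In all windows with a start within 1 kb the shares were closer, with 74.9% of strong narrower, 78.5% of weaker narrow and 85.9% of wide peaks, and it was in 46.2% of all windows. TATAAA was in 31 of 307 strong narrower windows (10.1%, 6.96 to 14), 5.06% (4.14 to 6.11) of weaker narrow and 8.18% (5.20 to 12.1) of wide ones. It was in 12.6% of all windows and 3.81% of CpG-rich ones. With the summit inside the window the intervals of TATAAA overlapped, at 9.43% (4.62 to 16.7) of strong narrower, 4.25% (2.92 to 5.95) of weaker narrow and 4.65% (1.28 to 11.5) of wide peaks.

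Sites of nuclear receptors known to recruit or be bound by SHP were rare. CAAGGTCA, the monomer site of NR5A2 (LRH-1), was in 4 of 106 strong narrower windows with the summit inside (3.77%, 1.04 to 9.38), at Micos10, Scpep1, Ndufs5 and Mrps15, against 8 of 753 weaker narrow (1.06%, 0.460 to 2.08) and 1 of 86 wide ones. These intervals overlapped. With every start within 1 kb counted, it was in 4 of 307 strong narrower (1.30%), 22 of 2016 weaker narrow (1.09%) and 3 of 269 wide peaks (1.12%), near the 1.34% of all windows. GTCANTGAC, an inverted repeat of the kind bound by FXR, was in 1 strong narrower window, at Taf13 (0.326% of 307), and in 0.348% of all windows. CAAAGTCCA, an HNF4 site, was in 0 of 307, which allows a share of up to 1.19% by the exact interval, and in 0.452% of all windows. A match in these windows is a run of letters and no measured site, and a window without it says nothing of a factor's binding.

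The promoters were CpG-rich, though slightly less often than those of other single-end peaks. Their windows had a median GC content of 64.7% (middle 50% from 58 to 70.3), against 65.3% in weaker narrow, 70.3% in wide and 56.3% in all windows. The median CpG ratio was 0.816 in strong narrower, 0.849 in weaker narrow, 0.860 in wide and 0.567 in all windows. Windows over both limits made up 74.9% (69.7 to 79.7) of strong narrower peaks, 82.6% (80.9 to 84.2) of weaker narrow, 92.2% (88.3 to 95.1) of wide ones, and 41.0% of all. In these windows, with a start within 1 kb, the interval of the strong narrower peaks lay below both others. With the summit inside the window, the share was 85.8% (77.7 to 91.9) in strong narrower peaks. It was 91.8% (89.6 to 93.6) in weaker narrow and 100% (95.8 to 100) in wide ones, so only the wide interval lay apart. The Npc1l1 window lay below the lower quartiles of both measures, with a GC content of 51.0% and a CpG ratio of 0.359.

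The genes were then set against 36 lists of gene families and pathways. Genes were matched to a list by symbol, so some are in more than 1 list and some fit by name only. A strong narrower peak was at 1.81% of all 21887 protein-coding genes (397 genes), and at 11.9% of the 3347 genes with any single-end peak. At least 1 list held 80 of the 397 genes, and 317 were in none. Of the lists, 29 had a member, and 27 had a share above the 1.81% of all genes. In a short list 1 member is enough for such a share, and only 21 lists had at least 2 members. The count of 27 thus follows in part from list size. Most lists were chosen for functions shared by all cells, and no list was tested.

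Genes of transcription and RNA processing included Cdk12, Eif4a3 and Supt5, which are among the strongest. Of 107 genes of RNA polymerase II, Mediator and general factors, 6 (5.61%, 2.09 to 11.8) had a strong narrower peak. They were Cdk12, Supt5, Med13l (8.86), a Mediator subunit, Polr2m (8.42), Polr2d (8.40), a polymerase subunit, and Taf13 (7.97), a TFIID subunit. Their median enrichment value was 8.64 against 7.54 over all members, which is a description only, since this value chose the members. Of 133 spliceosome and splicing genes, 7 had a strong narrower peak (5.26%, 2.14 to 10.5). They were led by Eif4a3, Rbm39, Lsm14a and Srrm2 (8.37), a scaffold of nuclear speckles. Among list genes with any single-end peak, the polymerase list had 6 of 26 (23.1%, 8.97 to 43.6). The splicing list had 7 of 40 (17.5%, 7.34 to 32.8). Both intervals included the 11.9% of all genes with such a peak.

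Genes of translation were also among them. Cytosolic ribosomal protein genes had 5 of 84 (5.95%, 1.96 to 13.3), namely Rps29 (8.65), Rpl27 (7.95), Rpl6 (7.52), Rpl37a (7.43) and Rps6 (7.25), which was 5 of 30 among those with a single-end peak. Translation factors had 4 of 80 (5%, 1.38 to 12.3), Denr and Eif4a3 far above Eif1b (7.13) and Eef2 (7.06). Eif4a3, named above as the helicase of the exon junction complex, is in this list by its symbol and also in the splicing list. The list of mitochondrial ribosomal proteins had 3 of 78 (3.85%, 0.800 to 10.8), Mrps35 (7.38), Mrps36 (7.34), which is in it by symbol only, and Mrps15 (7.20). One aminoacyl-tRNA synthetase gene of 37, Dars (7.02), had one.

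Lysosome, nutrient and iron genes included several members. Of 77 lysosome and V-ATPase genes, 6 (7.79%, 2.91 to 16.2) had a strong narrower peak. Among the 26 of them with any single-end peak the share was 23.1% (8.97 to 43.6). That interval included the 11.9% of all genes with such a peak. Scarb2 (9.03) encodes a lysosomal membrane protein that carries glucocerebrosidase, and Scpep1 (8.31) a lysosomal carboxypeptidase. Rragc (8.15), Rraga (7.87) and Flcn (7.45) act in amino acid sensing at the lysosome surface, and Npc1 (7.53) moves cholesterol out of lysosomes. Of 27 iron genes, 4 (14.8%, 4.19 to 33.7) had one, which was 4 of 8 among those with a single-end peak. Cybrd1 (7.78) is the ferric reductase of the duodenal brush border, Aco1 (7.34) is the iron regulatory protein that is also an aconitase, Pcbp2 (8.36) is an iron chaperone and Ncoa4 (7.56) is named above. The list of the TFEB family and nutrient signalling had 0 of 42 strong narrower peaks, with 15 of its genes among the single-end peaks. Rragc, Rraga and Flcn were counted in the lysosome list instead, so this 0 is no absence of nutrient genes. Autophagy had 2 of 53 (3.77%), Ambra1 (7.56) and the receptor gene Sqstm1 (7.19).

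In energy and protein handling the counts were small. Respiratory chain genes had 3 of 87 (3.45%), Cyc1 (9.10), Ndufs5 (7.37) and Atp5e (7.28). Carriers of the SLC25 family had 2 of 47, Slc25a4 and Slc25a12 (8.40), the proteasome had 2 of 49, Psmd5 and Psmc6 (7.95), and chaperones had 2 of 90, Hspa4 and Dnaja1 (7.56). The unfolded protein response had 2 of 42, Herpud1 (7.99) and Calr (7.43). The list of secretory coats and tethers had 4 of 95, Sec13 (8.19), Sec63 (7.48), Sec61a2 (7.47) and Trappc6b (7.34). Sec63 and Sec61a2 are in it by symbol only. Ubiquitin-specific proteases had 0 of 50, though 10 of these genes had a single-end peak.

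Lists of fat and sterol genes had 1 or 2 members each. Their shares were above the 1.81% of all genes, but every one of their intervals included that value. Sterol and fat uptake had 2 of 37 (5.41%, 0.661 to 18.2), Npc1l1 and Agpat2 (7.53), an enzyme of triglyceride synthesis. Sterol and fatty acid synthesis had 1 of 48, Hmgcs1, lipid droplets had 1 of 26, Ldah (8.30), and fatty acid oxidation had 2 of 37, Ucp2 (7.25) and Ppargc1a (7.02), the coactivator of mitochondrial genes. Bile acid signalling and transport had 0 of 25 (up to 13.7% by the exact interval), and 1 of its genes had a single-end peak of any kind. Nuclear receptors had 2 of 47, Nr6a1 (7.45) and Ppard (7.02), and corepressors and chromatin enzymes 4 of 132 (3.03%), Tbl1xr1 (8.30), a subunit of the NCoR complex, Ncoa4, Brd2 (7.40) and Kat6a (7.19).

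Early response genes and the list of cyclins, CDKs and cell division added a few. Immediate early genes had 3 of 33 (9.09%, 1.92 to 24.3), Klf6 (8.60), Klf4 (8.16), a factor of the differentiated gut epithelium, and Ier5 (7.92). The list of cyclins, CDKs and cell division had 3 of 100, Cdk12, Cdk16 (7.69) and Ccng2 (7.14). Cdk12 is also counted above among genes of RNA polymerase II. Zinc-finger genes of the Zfp family had 7 of 394 (1.78%), near the 1.81% of all genes, led by Zfp292 (7.92).

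**Figure D5:**
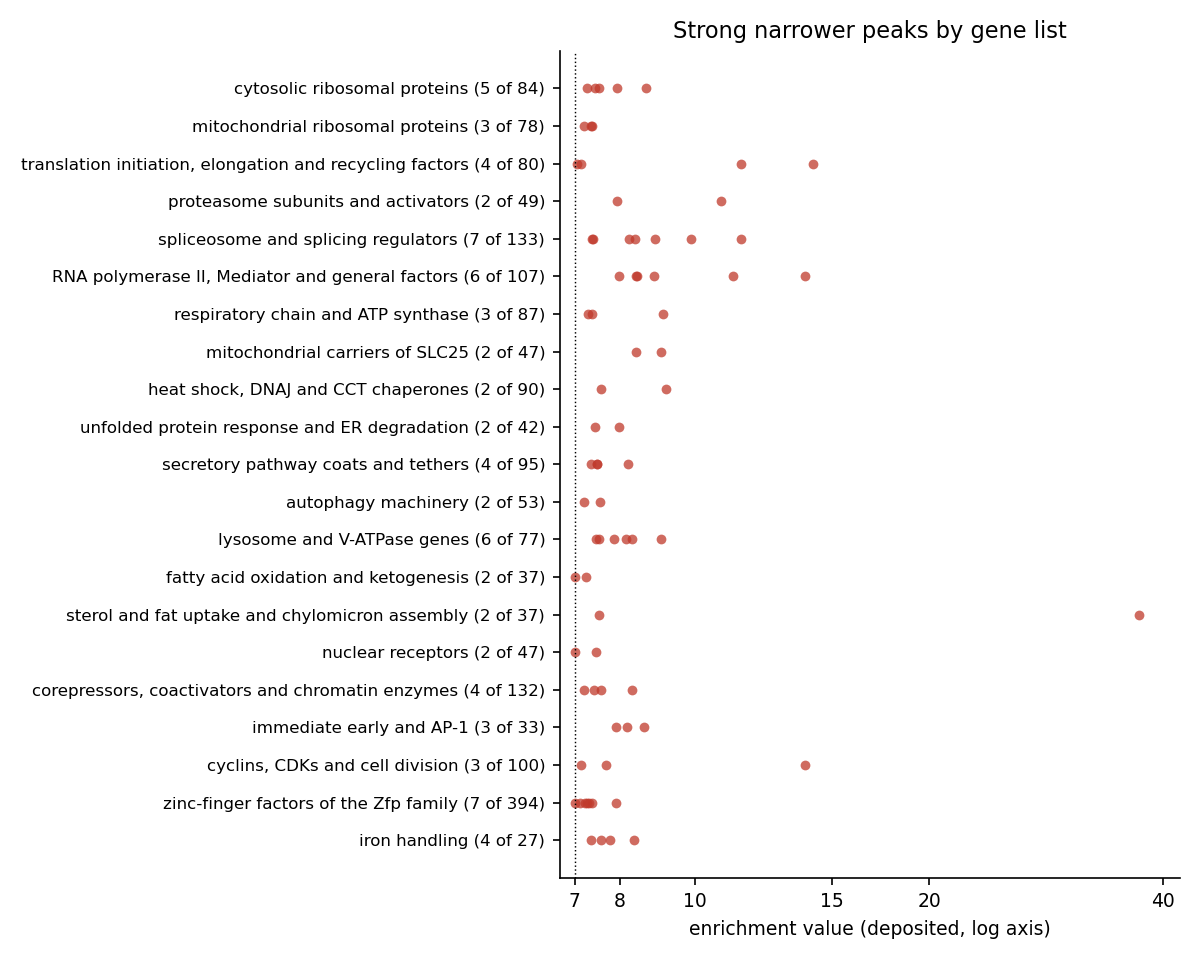
Deposited enrichment value (horizontal, log axis) of each strong narrower peak in the 21 lists with at least 2 such genes, 1 point per gene, with the number of list genes that have such a peak and the size of the list beside each name. Most points lie between 7 and 9, and the highest are Npc1l1 (37.2), Denr (14.2) and Cdk12 (13.8).

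Marker lists of cell types had 0 or 1 member each, counts that lists of their size give near the 1.81% of all genes. Of the 34 enterocyte brush border and digestion genes, only Anpep (7.21), an aminopeptidase of the brush border, had a strong narrower peak. Hepatocyte markers, from the liver and so of no cell sampled here, had 0 of 30, immune markers 0 of 28, and smooth muscle markers 0 of 14. Olfactory receptors, a family far larger than these lists, had 0 of 1106, which allows up to 0.333%. Of 10 defining enterocyte markers 1 had a strong narrower peak, and of the 5 secretory cell markers none (0) did, so these peaks do not identify the cell type sampled.

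After the values were seen, 3 gene families that recurred among the members were also counted, and their counts are a description of that choice. Histone genes had 7 of 74, which were 7 of the 11 with any single-end peak. They were H1f4 (9.36), H3c6 (8.60), H4c3 (7.92), H4c8 (7.76), H4c12 (7.69), H2az2 (7.22) and H3f3a (7.14). COMMD genes had 3 of 10, Commd8 (8.33), Commd7 (7.87) and Commd3 (7.25). ZBTB transcription factor genes had 5 of 40, Zbtb40 (8.997), Zbtb4 (8.25), Zbtb34 (7.85), Zbtb7b (7.66) and Zbtb20 (7.37).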

How the data were processed

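Per the submitters' processing notes, the tools were CASAVA 1.4 and BWA, with mm10 as the build. How peaks were called, whether the inputs served as control and how the 3 sets were combined is not given in the sources used here. The file of wild-type peaks carries an irreproducible discovery rate of 0.05 in its name, and that of knockout peaks the word overlap. The authors deposited for each peak a signal of unstated scale, a score of up to 1000 and −log10 p and −log10 q values, in narrowPeak layout without a header. These were used only to describe peaks within a list.

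Coordinates are 1-based. Gene positions, with 21887 protein-coding genes, and 21238 distinct promoter windows came from RefSeq tables of GRCm38.p6, matched by gene ID. The strand of a listed promoter gave the start side of its gene. Motifs were 18 plain-letter patterns searched on both strands, and the shorter core was added after the sequences were seen. No p-value was computed, since there was 1 list per genotype. Members and lists were chosen with earlier results of these data known, so no count is independent support for them.

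Genes were named by rule: the 20 highest peaks, up to 4 members of each list, the 3 peaks on each side of each threshold, and members overlapping a knockout peak. A few items that this rule names are not reported here. Others were singled out after their values were seen, namely the far-end, element-bearing, chromosome X and noncoding RNA neighbours, the members at 9 or more, lists given in full and the added families. Only the search for gene ends and the search for the longer motifs were tested on simulated data. Tools were Python 3.11.15, pandas 2.3.3 and scipy 1.17.1.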

Additional observations from a re-analysis of the deposited data

How the results depend on the processing

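The enrichment threshold set the number of members, which was 1120 at 6 or more and 114 at 8 or more, against 397 at 7. At 8 or more the share at the start side was 98.9%, the element share 12.4% over starts within 1 kb and 33.3% with the summit in the window, the CpG ratio 0.863 and the share of genes in any list 26.3%. With the summit inside the window, the element share was 17.0%, the GC content 66.7% and the CpG ratio 0.863. The shorter core, added after the data were seen, gave 10.7%. Widths under 1400 or 2000 bp, a summit within 500 bp or 2 kb, a −log10 p at or above the median of the list, and counting ends of every gene type moved none of these results outside their intervals or the count of members by over 1.5 times. The overlap with the knockout list was also 0 when at least 50% of the knockout peak or a distance of 10 kb was asked for. Of 441 values for single motifs and lists, 61 moved. No paired analysis was possible because each genotype had 1 peak list and no result comes from a test. Without read counts, depth limits could not be given.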
